A study of Mus musculus with 8 samples.

Results

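The genes described here are 7 ligands of the tumor necrosis factor (TNF) superfamily other than TNF itself, Tnfsf9, Tnfsf15, Tnfsf10, Tnfsf12, Tnfsf13, Tnfsf13b and Tnfsf14, and 3 of its receptors, Tnfrsf11a, Tnfrsf14 and Tnfrsf21. They were chosen by symbol, and they and the gene lists used below were chosen with earlier results of these data known. They are 10 of the 53735 genes in the count tables. All 10 were among the 14418 genes that passed the filter on low counts. The RNA came from bone marrow derived macrophages (BMDMs), which are marrow cells differentiated into macrophages in culture for 7 days. The donors were male mice aged 6 months, and every donor in both groups lacked Apoe, the apolipoprotein whose loss raises plasma cholesterol. WT denotes Mkl1+/+, Apoe-/- and KO denotes Mkl1-/-, Apoe-/-, a loss of the SRF coactivator MKL1 in all cells of the mouse. All donors, WT as well as KO, had received angiotensin II (Ang II) from an osmotic minipump for 7 days before marrow was taken, at a dose that the labels give both as 1 mg/kg/min and as 1.44 mg/kg/day, which do not match, so no library came from an uninfused or an Apoe+/+ mouse. Experiment 1 held the libraries WT 1, WT 2, KO 5 and KO 6, and experiment 2 held WT 3, WT 4, KO 7 and KO 8. The labels do not say whether each library was 1 mouse, so the p-values below measure only the spread between these libraries, which may be technical.

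Ligands of this superfamily are trimers, mostly held in the cell membrane and in part released by proteases, and each engages a small set of receptors with cysteine-rich extracellular domains. Receptors without a death domain recruit TRAF adaptors and activate the NF-κB pathways, whereas receptors with a death domain can also assemble caspase-activating complexes. Macrophages both make and receive these signals, which bear on T cell costimulation, B cell survival, osteoclast formation and cell death.

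Between 33977799 and 41584540 counts were deposited per library, and the genes that passed the filter held at least 99.88% of each library. Levels are in CPM, the counts of a gene relative to the TMM-scaled total of its library. The macrophage identity in the labels was checked with 10 markers. Their summed level was 15300 to 36100 CPM, mostly from Lyz2 (7610 CPM or more in every library) and Adgre1 (1670 CPM or more). Of the 10, 9 were at 19.7 CPM or more in every library, and F13a1 was at 0 in WT 4 and at most 5.14 CPM elsewhere. Of 7 T cell markers, 6 were at or under 3 counts in every library and Cd4 was between 0.91 and 2.8 CPM. Of 7 dendritic cell markers, 3 were at or under 3 counts and Itgax reached 46.7 CPM. A list of 9 fibroblast markers summed to 163 CPM in KO 5 and 217 CPM in KO 6 and to between 1.68 and 11.2 CPM in the other 6 libraries. Mkl1, the targeted gene, was at 25.7, 27.1, 26.8 and 29.6 CPM in WT 1 to WT 4, at 19.5 and 20.9 CPM in KO 5 and KO 6, and at 14.6 and 10.4 CPM in KO 7 and KO 8. It was thus lower in every KO library but still counted, with log2 fold changes of -0.39 in experiment 1 (edgeR adjusted p = 0.00381) and -1.17 in experiment 2 (adjusted p = 0.0218), and the sources used here do not give the deleted part of the gene. The groups of the same label did not resemble each other most closely across experiments. The SD over all tested genes of the log2 difference between group means was 0.406 for the KO of experiment 2 against the WT of experiment 1, and it was between 0.841 and 0.983 for the other pairs of groups. The labels were used as given, and the cause of this resemblance was not tested. Because KO 5 and KO 6 make up the whole KO group of experiment 1, the values without them are those of experiment 2 alone.

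Per kilobase of exon, the scale on which genes can be compared, the 10 genes spanned a wide range of levels. Tnfrsf11a, which encodes RANK, the receptor for the osteoclast-forming ligand RANKL, had a median of 18.6 CPM per kb over the 8 libraries. Tnfsf9 followed with 10.9 CPM per kb, Tnfrsf14 with 10.3 and Tnfsf12 with 9.06. Lower medians were found for Tnfrsf21 (3.5 CPM per kb), Tnfsf15 (1.33), Tnfsf14 (1.16), Tnfsf13 (0.788), Tnfsf10 (0.718) and Tnfsf13b (0.389). In this order each neighboring pair had overlapping ranges over the 8 libraries, which span both genotypes and both experiments. The order of neighbors could differ between groups, and Tnfsf15 stood above Tnfsf14 in every WT library and below it in every KO library. As landmarks, Tnf stood at 129 CPM per kb and Tnfrsf1b, its receptor TNFR2, at 182. Tnfsf12 and Tnfsf13 share 48.3% and 60.0% of their exonic bases with the readthrough gene Tnfsfm13. Their full exon lengths were used, so their places in this order are uncertain.

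Of the 10 genes, Tnfsf10 varied most between libraries, its highest level being 73.4 times its lowest, and Tnfrsf11a varied least, at 1.26 times. The median over all tested genes was 1.86. Tnfsf9, Tnfsf15, Tnfsf10 and Tnfrsf14, 4 of the 10, had their highest levels in WT 3 and WT 4, as did 19% of all tested genes. Another 4 had theirs in KO 5 and KO 6 (Tnfsf12, Tnfsf13, Tnfsf13b and Tnfsf14), as did 21.3% of all tested genes. Tnfrsf21 peaked in KO 7 and KO 8, like 4.19% of the tested genes, and Tnfrsf11a in WT 1 and WT 3.

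**Figure D1:**
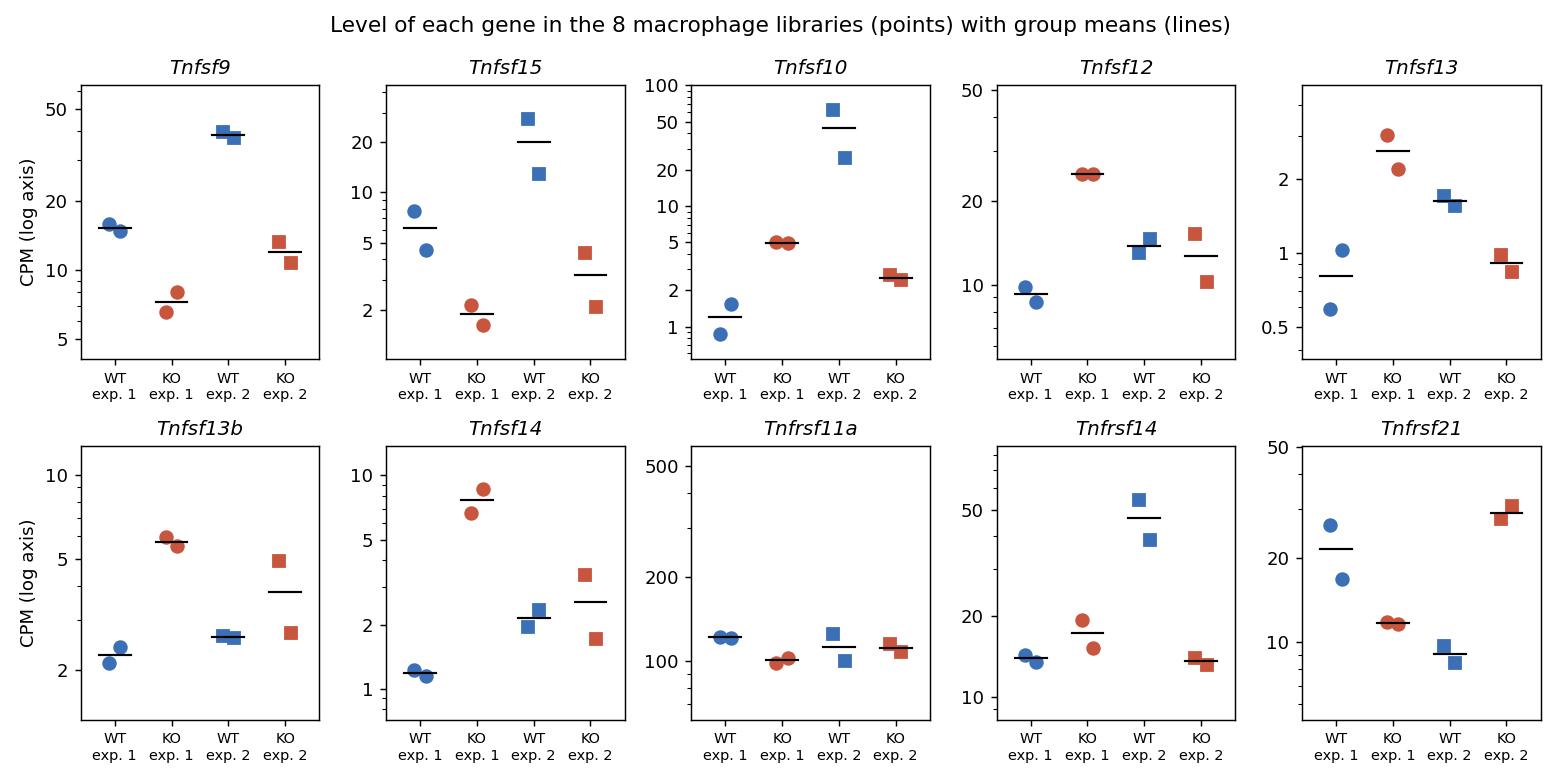
Level of each of the 10 genes in CPM on a log axis, with 1 point per library (blue WT, red KO, circles experiment 1, squares experiment 2) and a line at the mean of each group of 2 libraries. Tnfsf9 and Tnfsf15 are the genes with every red point below every blue one, Tnfsf12 to Tnfsf14 have their highest points in the KO of experiment 1, and Tnfrsf11a is almost level.

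KO was compared with WT within each experiment by edgeR's quasi-likelihood test, adjusted over all 14418 genes. In experiment 1, 9 of the 10 genes passed an adjusted p of 0.05, 5 higher and 4 lower in KO, where 55.1% of all tested genes passed (27% higher and 28.1% lower). In experiment 2, 5 passed, 1 higher and 4 lower, beside 15.8% of all genes (7.52% higher and 8.29% lower). These counts moved when single libraries were left out, and 5 of the 10 and 2279 of all genes became 4 and 803 without WT 3, 5 and 1388 without WT 4, 3 and 842 without KO 7, and 2 and 232 without KO 8. In experiment 1 most of the transcriptome was called, so a call there does not set a gene apart from most others. The median log2 fold change of the 10 was 0.82 in experiment 1 and -0.48 in experiment 2, whereas over all tested genes it was 0.01 in each. Only Tnfsf9 and Tnfsf15 passed in the same direction in both experiments (4.38% of all genes did), and Tnfsf10 and Tnfrsf21 passed in opposite directions (6.34% of all genes). For 7 of the 10 the genotype effect was unequal in the 2 experiments by the interaction test, beside 41.6% of all genes. With all 8 libraries and the experiment as a term, Tnfsf9 and Tnfsf15 were called lower in KO and no other gene of the 10 was called, beside 7.12% of all genes (3.72% higher and 3.41% lower). Over all genes 1027 calls became 243 to 630 when any 1 library but KO 8 was left out, and 1100 without KO 8. These 2 calls were lost in a fit without the experiment term (adjusted p = 0.161 for Tnfsf9 and 0.157 for Tnfsf15), and in one in which the KO libraries traded places between the experiments, added after the data were seen (0.0968 and 0.09). DESeq2, and the mean of both genotype effects in a fit with the interaction, called more of the 10 and more of all genes, as given in the last section. Ranked over the 8 libraries, 3 of the 10 genes had KO and WT levels that did not overlap, Tnfsf9 and Tnfsf15 with KO below WT and Tnfsf13b with KO above, beside 12.7% of all genes (6.25% with KO below and 6.46% with KO above).

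**Figure D2:**
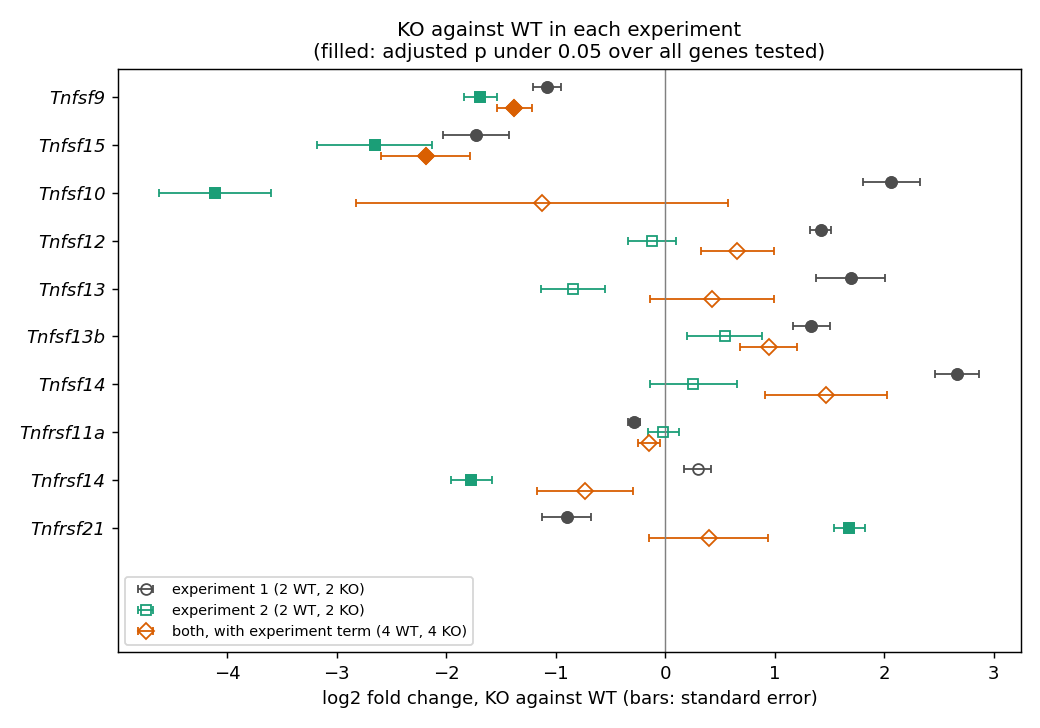
Log2 fold change of KO against WT with its standard error for the 10 genes, in experiment 1 (grey circles), in experiment 2 (green squares) and in both with an experiment term (orange diamonds). Filled symbols have an adjusted p under 0.05, and for Tnfsf10, with 2.07 in experiment 1 and -4.11 in experiment 2, and for Tnfrsf21 the filled symbols lie on both sides of 0.

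Tnfsf9 encodes CD137 ligand, a costimulator that engages Tnfrsf9 on activated T cells. Its levels were 15.9 and 14.7 CPM in WT 1 and WT 2 and 6.57 and 8.02 CPM in KO 5 and KO 6. In experiment 2 they were 39.8 and 37.4 CPM in WT 3 and WT 4 and 13.3 and 10.8 CPM in KO 7 and KO 8. All KO values were under all WT values, and both WT libraries of experiment 2 stood above all the others. The WT mean was 2.11 times the KO mean in experiment 1 (log2 fold change -1.08, SE 0.127, adjusted p = 0.00021) and 3.22 times in experiment 2 (-1.69, SE 0.147, adjusted p = 0.00655). Joining both experiments, WT averaged 27.0 ± 13.5 CPM and KO averaged 9.65 ± 2.96 CPM (SD, n = 4 each), with a log2 fold change of -1.38 (SE 0.159, edgeR adjusted p = 0.00666). The fall was larger in experiment 2 by 0.62 on the log2 scale, with an adjusted p of 0.039 for the interaction, a call that was lost in 6 of the 8 fits that left out 1 library (adjusted p between 0.0574 and 0.137). In bulk RNA, fewer cells of a type and less RNA per cell cannot be told apart. Tnfsf9 lies on the plus strand at chr17:57105325-57107757 of GRCm38 (GENCODE M21). Gm11110 covers 14.9% of its exonic bases on the opposite strand, and the sources used here do not say whether counting used strand.

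The receptor of this ligand was barely detected. Tnfrsf9 was at 0.615, 0.293, 1.04 and 1.93 CPM in WT 1 to WT 4 and at 0.135, 0.25, 0.195 and 0.0959 CPM in KO 5 to KO 8. All KO values lay below all WT values here as well, although WT 2 and KO 6 each had 10 counts and differed only by scaling. The log2 fold change was -1.25 (SE 0.538, adjusted p = 0.0811) in experiment 1 and -3.32 (SE 0.548, adjusted p = 0.022) in experiment 2, and -2.31 (SE 0.58, adjusted p = 0.0614) in both. The 7 T cell markers summed to between 0.934 and 2.87 CPM, nearly all from Cd4, which rose in KO in experiment 1 (log2 fold change 1.04, adjusted p = 0.0217).

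Tnfsf15 encodes TL1A, the ligand of death receptor 3 (Tnfrsf25), which costimulates lymphocytes. It was measured at 7.75 and 4.52 CPM in WT 1 and WT 2 against 2.14 and 1.63 CPM in KO 5 and KO 6. Experiment 2 gave 27.4 and 12.8 CPM in WT 3 and WT 4 against 4.34 and 2.06 CPM in KO 7 and KO 8. No KO library reached the lowest WT library, although the replicates of experiment 2 lay far apart within each group. The WT mean exceeded the KO mean 3.31 times in experiment 1 (log2 fold change -1.73, SE 0.301, adjusted p = 0.00331) and 6.28 times in experiment 2 (-2.65, SE 0.525, adjusted p = 0.0364). In both experiments together WT averaged 13.1 ± 10.1 CPM and KO averaged 2.54 ± 1.222 CPM (SD, n = 4 each), with a log2 fold change of -2.19 (SE 0.406, adjusted p = 0.026). This last call was lost when WT 1, WT 4, KO 5, KO 6 or KO 7 was left out, with adjusted p between 0.0508 and 0.0932. The call in experiment 2 was lost without WT 3 (adjusted p = 0.0989), KO 7 (0.0712) or KO 8 (0.143) and with no filter on low counts (0.229), and its log2 fold change ran from -3.28 without KO 7 to -2.0 without WT 3. A difference between the experiments was not detected (interaction -0.94, SE 0.681, adjusted p = 0.3), except with no filter on low counts (adjusted p = 0.00709). The interaction ran from -1.53 without KO 7 to -0.26 without WT 3. Tnfrsf25 was at or under 0.048 CPM in every library and was not tested. Tnfsf15 lies on the minus strand at chr4:63727084-63745113.

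Tnfsf10 and Tnfrsf21 were called in opposite directions in the 2 experiments. Tnfsf10 encodes TRAIL, which binds death receptors and is known as an interferon-induced gene. It was at 0.861 and 1.53 CPM in WT 1 and WT 2 and rose to 5.06 and 4.90 CPM in KO 5 and KO 6. In experiment 2 it was at 63.2 and 25.2 CPM in WT 3 and WT 4 and at 2.66 and 2.45 CPM in KO 7 and KO 8. All KO libraries lay between 2.45 and 5.06 CPM, above WT 1 and WT 2 and below WT 3 and WT 4. KO against WT gave a log2 fold change of 2.07 in experiment 1 (SE 0.261, adjusted p = 0.000325, 4.18-fold higher in KO) and -4.11 in experiment 2 (SE 0.508, adjusted p = 0.0154, with the WT mean 17.3 times the KO mean), where it ran from -4.63 without WT 4 to -3.3 without WT 3. The interaction was -6.19 (SE 0.648, adjusted p = 0.000628), and it ran from -6.71 without WT 4 to -5.35 without WT 3. Joined with an experiment term, the log2 fold change of -1.12 had an SE of 1.70 (adjusted p = 0.74), and it became 0.41 without KO 7 and 0.38 without KO 8. The call in experiment 2 was lost without KO 7 (adjusted p = 0.0687) or KO 8 (0.0964) and with no filter on low counts (0.124).

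A list of 22 interferon stimulated genes, which does not hold Tnfsf10, turned between the experiments as well. Of these, 19 were higher in KO in experiment 1 and 17 lower in KO in experiment 2, beside 27% and 8.29% of all genes, with median log2 fold changes of 1.34 and -2.02. Their summed level ordered the libraries, from the highest, as WT 3 (14100 CPM), WT 4 (6870), KO 5 (3320), KO 6 (3050), KO 7 (2340), KO 8 (1700), WT 2 (1380) and WT 1 (1280). Tnfsf10 put the libraries in the same order at all 8 places, and the share of all tested genes with this order was not counted. Of 12029 genes compared, the 2 most like Tnfsf10 in log2 CPM over the 8 libraries were Herc6 and Trim21, each with Pearson's r of 0.994, which describes 8 points with shared groups. The part of an interferon response in the levels of these genes was not tested.

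**Figure D3:**
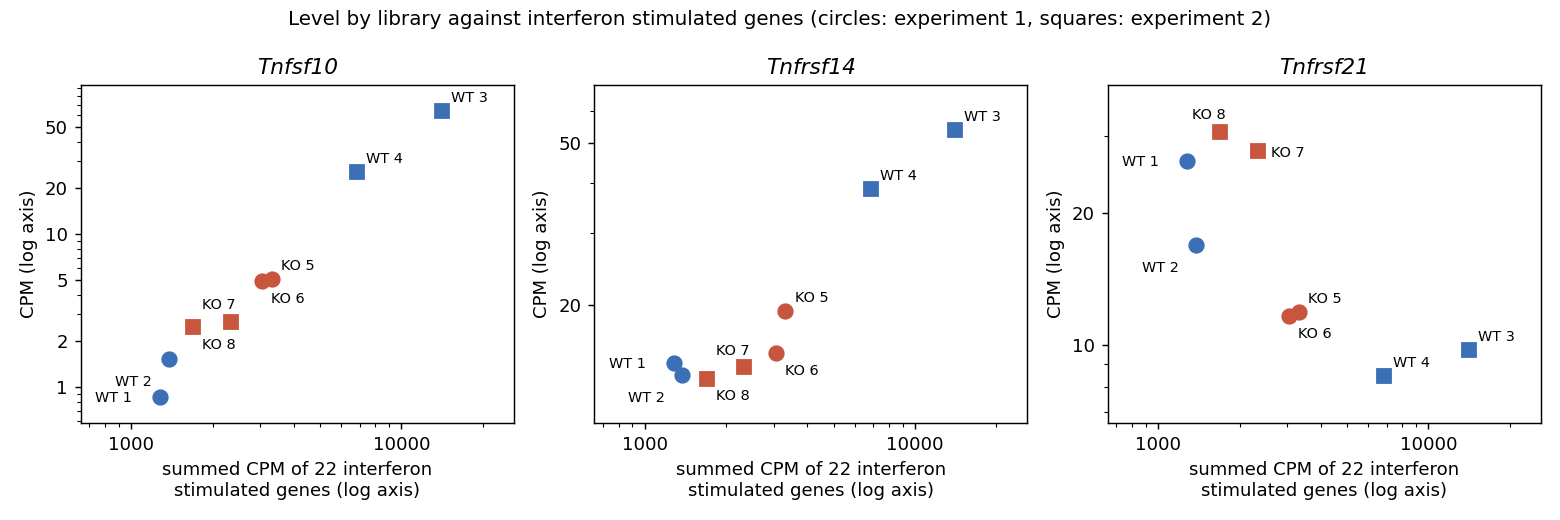
Level of Tnfsf10, Tnfrsf14 and Tnfrsf21 in CPM against the summed CPM of 22 interferon stimulated genes, both on log axes, with 1 point per library (blue WT, red KO, circles experiment 1, squares experiment 2). Tnfsf10 keeps the order of the interferon sum at all 8 places, Tnfrsf14 is high only in WT 3 and WT 4, and Tnfrsf21 is lowest in those same 2 libraries.

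Tnfrsf14 encodes HVEM, a receptor for LIGHT that also binds the inhibitory lymphocyte receptors BTLA and CD160. Its levels were 14.4 and 13.5 CPM in WT 1 and WT 2 and 19.3 and 15.2 CPM in KO 5 and KO 6. They were 54.1 and 38.6 CPM in WT 3 and WT 4 and 14.0 and 13.2 CPM in KO 7 and KO 8. The 2 WT libraries of experiment 2 stood apart from the 6 others, which stayed between 13.2 and 19.3 CPM. In experiment 1 the log2 fold change was 0.30 (SE 0.127, adjusted p = 0.0809), and it ran from 0.12 without KO 5 to 0.46 without KO 6. It passed the threshold with upper-quartile scaling (adjusted p = 0.0301). In experiment 2 it was -1.77 (SE 0.19, adjusted p = 0.00991), with the WT mean 3.41 times the KO mean, a call that was lost without KO 8 (adjusted p = 0.0731). The interaction was -2.08 (SE 0.253, adjusted p = 0.00101). Tnfrsf14 and Tnfsf10 correlated over the libraries with r = 0.947. Vamp8 was among the tested genes most like Tnfrsf14 (r = 0.997).

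Because both genes were highest in WT 3 and WT 4, the promoter windows of Tnfsf10 and Tnfrsf14 are shown, from RefSeq on GRCm38.p6, in the direction of transcription. Capitals mark the letters of an interferon-stimulated response element, GAAA and GAAA with any 2 letters between them, searched on both strands. Tnfsf10 lies on the plus strand at chr3:27317028-27342427 (window chr3:27316827-27317126), and Tnfrsf14 on the minus strand at chr4:154921933-154928563 (window chr4:154928028-154928327).
Tnfsf10: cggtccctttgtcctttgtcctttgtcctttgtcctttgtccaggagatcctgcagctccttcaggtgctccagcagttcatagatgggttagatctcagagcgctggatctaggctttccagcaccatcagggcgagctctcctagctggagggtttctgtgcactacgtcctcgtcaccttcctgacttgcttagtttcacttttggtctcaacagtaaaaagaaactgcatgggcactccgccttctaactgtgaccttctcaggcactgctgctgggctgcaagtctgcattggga
Tnfrsf14: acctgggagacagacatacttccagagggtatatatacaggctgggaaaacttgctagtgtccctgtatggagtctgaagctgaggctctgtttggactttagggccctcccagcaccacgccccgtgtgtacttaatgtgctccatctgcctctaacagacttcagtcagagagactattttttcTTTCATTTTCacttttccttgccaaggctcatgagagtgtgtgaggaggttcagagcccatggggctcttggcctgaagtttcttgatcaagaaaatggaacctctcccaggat
The window of Tnfrsf14 held the letters on the opposite strand, from -64 to -55 relative to the RefSeq start, and that of Tnfsf10 did not hold them. Nor did that of Tnfsf15, which was also highest in WT 3 and WT 4 and is not shown. Of 32851 RefSeq promoter windows, 3.44% held this motif. A match of letters describes the sequence and does not show a site in use.

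Tnfrsf21 encodes death receptor 6, a receptor with a death domain. It was at 26.4 and 16.9 CPM in WT 1 and WT 2 and at 11.9 and 11.6 CPM in KO 5 and KO 6. In experiment 2 it was at 9.73 and 8.45 CPM in WT 3 and WT 4 and at 27.7 and 30.7 CPM in KO 7 and KO 8. Here the KO libraries of experiment 2 were highest and the WT libraries of experiment 2 lowest. A log2 fold change of -0.90 was found in experiment 1 (SE 0.224, adjusted p = 0.0225). This call was lost without KO 5 (log2 fold change -0.91) or KO 6 (-0.88). Without single WT libraries the log2 fold change was -1.18 (without WT 2) and -0.53 (without WT 1). In experiment 2 it was 1.68 (SE 0.141, adjusted p = 0.00631, 3.21-fold higher in KO). The interaction was 2.57 (SE 0.284, adjusted p = 0.000763), in the opposite direction to that of Tnfsf10, and the levels of Tnfrsf21 and Tnfsf10 correlated with r = -0.787. None of the libraries held the same rank in Tnfrsf21 as in the interferon sum. Over both experiments the log2 fold change was 0.40 (SE 0.545, adjusted p = 0.707). The amyloid precursor protein App and the syndecan Sdc1 have been described as binding partners of this receptor. App fell in KO in experiment 1 (log2 fold change -0.33, adjusted p = 0.00909) and measured 0.50 in experiment 2 (adjusted p = 0.0766), with an interaction that passed (adjusted p = 0.0061). Sdc1 fell in experiment 2 (log2 fold change -1.92, SE 0.372, adjusted p = 0.0345) and measured -0.54 in experiment 1 (adjusted p = 0.178). Tnfrsf21 lies on the plus strand at chr17:43016555-43089189.

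The other 4 ligands were highest in the KO libraries of experiment 1. Tnfsf14 encodes LIGHT, which binds the lymphotoxin beta receptor and HVEM. It was at 1.23 and 1.14 CPM in WT 1 and WT 2 and at 6.66 and 8.62 CPM in KO 5 and KO 6. It was at 1.95 and 2.33 CPM in WT 3 and WT 4 and at 3.42 and 1.70 CPM in KO 7 and KO 8. The groups were wide apart in experiment 1 and overlapped in experiment 2. KO exceeded WT by a log2 fold change of 2.67 in experiment 1 (SE 0.202, adjusted p = 2.2e-05, 6.36-fold higher in KO), and 0.26 in experiment 2 (SE 0.395, adjusted p = 0.681), where it became -0.33 without KO 7 and 0.68 without KO 8. The interaction was -2.42 (SE 0.475, adjusted p = 0.00632). In both experiments together the log2 fold change of 1.47 did not pass (SE 0.556, adjusted p = 0.159), although it passed with DESeq2 (1.46, adjusted p = 0.0319) and as the mean of both genotype effects in a fit with the interaction (adjusted p = 0.00404). The lymphotoxin beta receptor Ltbr was between 58.6 and 74.1 CPM and was not called in either experiment, with log2 fold changes of -0.14 (adjusted p = 0.108) and 0.25 (adjusted p = 0.157). Btla and Cd160, the further partners of HVEM, were at or under 3 counts in every library. Tnfsf14 lies on the minus strand at chr17:57189492-57194177.

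Tnfsf12 encodes TWEAK, a ligand expressed by macrophages that binds the small receptor Fn14. It was at 9.84 and 8.66 CPM in WT 1 and WT 2 and at 25.0 CPM in both KO 5 and KO 6. It was at 12.9 and 14.5 CPM in WT 3 and WT 4 and at 15.1 and 10.2 CPM in KO 7 and KO 8. KO was clearly above WT in experiment 1, and the KO pair enclosed the WT pair in experiment 2. The log2 fold change was 1.42 (SE 0.0981, adjusted p = 1.41e-05, 2.68-fold higher) in experiment 1, with the smallest p of the 10 genes, and -0.12 (SE 0.219, adjusted p = 0.745) in experiment 2, where it became 0.14 without KO 8. The interaction was -1.55 (SE 0.258, adjusted p = 0.00332). Tnfrsf12a, which encodes Fn14, rose in experiment 1 as well, from 2.88 and 3.93 CPM in WT 1 and WT 2 to 6.87 and 8.30 CPM in KO 5 and KO 6 (log2 fold change 1.15, SE 0.191, adjusted p = 0.0013). In experiment 2 it was at 2.55 and 2.93 CPM in WT and at 6.30 and 3.12 CPM in KO (0.78, SE 0.381, adjusted p = 0.216).

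Tnfsf13 encodes APRIL and Tnfsf13b encodes BAFF, a pair of ligands that sustain B cells and plasma cells. Tnfsf13 was low, at 0.59 and 1.03 CPM in WT 1 and WT 2 and 3.03 and 2.20 CPM in KO 5 and KO 6. In experiment 2 it was at 1.70 and 1.55 CPM in WT 3 and WT 4 and at 0.976 and 0.839 CPM in KO 7 and KO 8. Between 24 and 112 counts stood behind these values. KO was above WT in experiment 1 (log2 fold change 1.70, SE 0.312, adjusted p = 0.0023, 3.24-fold) and, without passing, below it in experiment 2 (-0.84, SE 0.291, adjusted p = 0.112). The interaction was -2.54 (SE 0.448, adjusted p = 0.00417).

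Tnfsf13b was at 2.12 and 2.41 CPM in WT 1 and WT 2 and at 5.95 and 5.55 CPM in KO 5 and KO 6. It was at 2.63 and 2.59 CPM in WT 3 and WT 4 and at 4.90 and 2.71 CPM in KO 7 and KO 8. All 4 KO libraries exceeded all 4 WT libraries, by a small margin in KO 8. The log2 fold change was 1.34 in experiment 1 (SE 0.168, adjusted p = 0.000294, 2.53-fold higher in KO) and 0.54 in experiment 2 (SE 0.342, adjusted p = 0.319). In experiment 2 it ran from 0.05 without KO 7 to 0.91 without KO 8. Across both experiments WT averaged 2.44 ± 0.235 CPM and KO averaged 4.78 ± 1.45 CPM (SD, n = 4 each), with a log2 fold change of 0.95 (SE 0.258, edgeR adjusted p = 0.0731). This missed the threshold, and it passed without KO 8 (adjusted p = 0.0184), with DESeq2 (0.00783) and as the mean of both genotype effects (0.0104). A difference between the experiments was not detected (interaction -0.80, SE 0.393, adjusted p = 0.139), except without KO 7 (-1.26, adjusted p = 0.00988). TACI, the receptor of both ligands encoded by Tnfrsf13b, was between 24.7 and 35.4 CPM and was not called, whereas Tnfrsf13c and Tnfrsf17, which encode the BAFF receptor and BCMA, were too low to test. B cell markers summed to at most 5.61 CPM in any library. Tnfsf13b lies on the plus strand at chr8:10006467-10039072.

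Markers of other cells moved with the rise of these 4 ligands in experiment 1. The fibroblast markers rose in KO 5 and KO 6, with 6 of the 6 tested called higher and a median log2 fold change of 5.12, while none was called in experiment 2 (median -0.28). Most of the signal was in collagen genes, and Col1a2 reached 105 CPM. A list of 7 dendritic cell markers summed to 20 and 29.8 CPM in KO 5 and KO 6, 32.3 and 47.6 CPM in WT 3 and WT 4, and at most 3.93 CPM elsewhere, nearly all of it from Itgax, which macrophages also express. A list of 5 endothelial markers, mostly Vwf and Kdr, summed to 164 and 191 CPM in KO 5 and KO 6, 90.4 and 71.8 CPM in WT 1 and WT 2, 223 and 118 CPM in WT 3 and WT 4, and 107 and 68.5 CPM in KO 7 and KO 8. Of the 4 tested, Vwf (2.35-fold, adjusted p = 0.0132) and Kdr (1.76-fold) were called higher in experiment 1, and Pecam1 (log2 fold change -0.95, adjusted p = 0.0772) and Cdh5 were not called. Of the macrophage markers, 9 of 10 were called in experiment 1, 5 higher and 4 lower, where 55.1% of all genes were called. Adgre1 had means of 7715 CPM in WT and 1799 CPM in KO there and was 1.88-fold higher in KO in experiment 2 (adjusted p = 0.0258), while the 5 higher in experiment 1 ran from Fcgr1 (1.44-fold) to F13a1 (20.6-fold). The part of other cells in the levels of the 4 ligands and of Tnfrsf12a was not tested.

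Tnfsf12 and Tnfsf13 are neighbors on the minus strand (chr11:69686250-69695849 and chr11:69682846-69685784), and their counts are uncertain. The annotated readthrough gene Tnfsfm13 (chr11:69682577-69696098) shares 48.3% of the exonic bases of Tnfsf12 and 60.0% of those of Tnfsf13 on the same strand. How reads in shared bases were assigned is not given in the sources used here. Tnfsfm13 was itself at 2.43 and 1.56 CPM in WT 1 and WT 2, 4.30 and 3.35 CPM in KO 5 and KO 6, and between 1.46 and 2.46 CPM in experiment 2, and it was called higher in KO in experiment 1 (log2 fold change 0.91, adjusted p = 0.0161). Its direction in experiment 1 was thus that of its neighbors.

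Promoter windows of Tnfsf13, Tnfsf13b and Tnfsf14 are shown because these ligands shared their highest libraries. They come from RefSeq on GRCm38.p6 and run in the direction of transcription, for Tnfsf13 at chr11:69685505-69685804 on the minus strand, for the second window of Tnfsf13b at chr8:10006383-10006682 on the plus strand and for Tnfsf14 at chr17:57194132-57194431 on the minus strand. Capitals mark TGANTCA with any letter at N, and in Tnfsf13b also the paired GAAA letters. The letters of an AP-1 site, with C or G at N, are narrower than this pattern.
Tnfsf13: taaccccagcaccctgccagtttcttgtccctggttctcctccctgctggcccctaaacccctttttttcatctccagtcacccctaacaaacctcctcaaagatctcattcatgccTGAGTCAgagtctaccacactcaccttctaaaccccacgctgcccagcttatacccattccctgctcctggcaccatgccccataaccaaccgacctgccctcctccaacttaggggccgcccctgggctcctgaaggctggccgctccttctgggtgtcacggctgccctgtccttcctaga
Tnfsf13b: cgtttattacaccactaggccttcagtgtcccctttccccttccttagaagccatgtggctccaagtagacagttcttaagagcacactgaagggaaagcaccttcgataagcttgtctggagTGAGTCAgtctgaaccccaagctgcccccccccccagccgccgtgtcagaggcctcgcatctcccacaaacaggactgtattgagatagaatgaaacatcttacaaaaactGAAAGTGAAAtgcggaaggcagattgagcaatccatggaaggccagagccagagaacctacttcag
Tnfsf14: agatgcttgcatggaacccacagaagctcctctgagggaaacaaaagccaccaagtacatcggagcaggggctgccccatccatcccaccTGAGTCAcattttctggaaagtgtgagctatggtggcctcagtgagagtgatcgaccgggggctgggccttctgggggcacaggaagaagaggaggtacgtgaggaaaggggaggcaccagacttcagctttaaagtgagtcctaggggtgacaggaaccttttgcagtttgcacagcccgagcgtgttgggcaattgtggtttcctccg
TGANTCA stood at -133 to -127 in Tnfsf13, at -127 to -121 in Tnfsf13b and at -160 to -154 in Tnfsf14, each time as TGAGTCA, and the paired GAAA letters stood at -16 to -7 in Tnfsf13b. The first window of Tnfsf13b overlaps the second and also holds the AP-1 letters. TGANTCA was in the windows of no other gene of the 10, and 7.81% of all promoter windows held it with any letter at N. The share with only C or G there was not counted. Windows were given for 8 of the 10 genes, not for Tnfsf9 and Tnfsf12. The NF-κB letters GGGANTTCC, the same letters with TTT in place of TT, the CArG box of SRF and the CRE letters TGACGTCA, searched on both strands, were in none of these windows, beside 1.68%, 0.411%, 1.63% and 1.79% of all windows.

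Tnfrsf11a was the steadiest gene of the 10. It was at 122 and 121 CPM in WT 1 and WT 2 and 98.5 and 103 CPM in KO 5 and KO 6, and at 124 and 100 CPM in WT 3 and WT 4 and 115 and 108 CPM in KO 7 and KO 8. A small fall in experiment 1 passed the test (log2 fold change -0.29, SE 0.0559, adjusted p = 0.00293), and it was lost in a fit of all 4 groups together (adjusted p = 0.0769). In experiment 2 the log2 fold change was -0.01 (SE 0.142, adjusted p = 0.956), with a sign that turned under upper-quartile scaling (0.04). Over both experiments it was -0.14 (SE 0.0985, adjusted p = 0.411). Its ligand Tnfsf11 was at or under 0.1 CPM in every library, and the decoy receptor Tnfrsf11b, known as osteoprotegerin, was at 1.30 and 1.25 CPM in KO 5 and KO 6 and at most 0.201 CPM elsewhere. The fibroblast markers were also highest in KO 5 and KO 6, and the part of other cells in the level of Tnfrsf11b was not tested. Tnfrsf11a lies on the plus strand at chr1:105780718-105847981.

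Genes known to respond to RANK during osteoclast formation were called in both directions. Of 12 listed, 9 were tested, with 3 higher and 3 lower in KO in experiment 1, 2 higher and 3 lower in experiment 2, and 1 higher over both. Of all tested genes, 55.1%, 15.8% and 7.12% were called in these comparisons. The gene called over both was Nfatc1, the main osteoclast transcription factor, at 27.7, 30.1, 23.5 and 23.8 CPM in WT 1 to WT 4 and 57.3, 57.4, 34.1 and 32.7 CPM in KO 5 to KO 8 (log2 fold change 0.74, SE 0.112, adjusted p = 0.0141). Its WT and KO levels did not overlap. Itgb3, the beta 3 integrin, rose in experiment 1 from 4.94 and 4.49 CPM to 29.2 and 28.3 CPM (log2 fold change 2.59, adjusted p = 1.33e-06), and in experiment 2 it measured 0.73 (adjusted p = 0.0845). The 3 called lower in experiment 1 were Mmp9 (log2 fold change -3.01), Fos (-1.76) and Acp5 (-1.71), and Acp5 was higher in KO in experiment 2 (1.27, adjusted p = 0.0273). Atp6v0d2, a proton pump subunit, was higher in KO in experiment 1 (2.16) and lower in experiment 2 (-2.58, adjusted p = 0.0458).

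**Figure D4:**
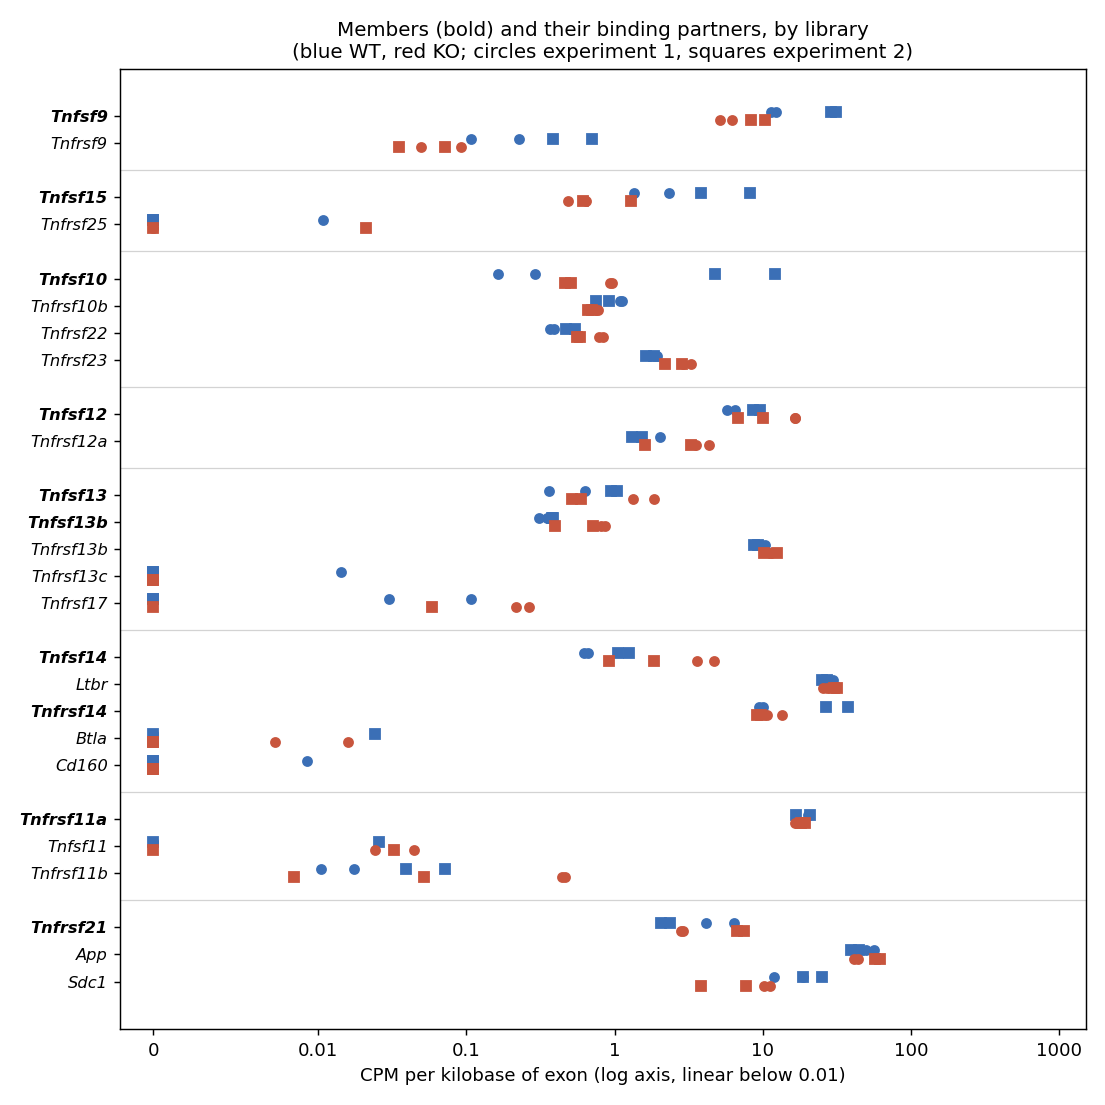
Level of the 10 genes (bold) and their known binding partners in CPM per kilobase of exon on a log axis that is linear below 0.01, with 1 point per library (blue WT, red KO, circles experiment 1, squares experiment 2). Ltbr, Tnfrsf13b and App are well above 1 CPM per kb in every library, whereas Tnfrsf25, Tnfrsf13c, Btla, Cd160 and Tnfsf11 lie near 0.

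Of 16 listed binding partners, 9 were tested. In experiment 1, 3 of them rose and 2 fell in KO, in experiment 2 none rose and 2 fell, and over both 1 rose, where 55.1%, 15.8% and 7.12% of all genes were called. The partners of TRAIL described here are Tnfrsf10b, its death receptor, and the decoys Tnfrsf22 and Tnfrsf23, which lack a death domain. Tnfrsf23 was at 7.65, 7.34, 6.41 and 7.25 CPM in WT 1 to WT 4 and at 11.4, 13, 11.4 and 8.71 CPM in KO 5 to KO 8, so that all KO values lay above all WT values. It was the partner that rose over both experiments (log2 fold change 0.63, SE 0.125, adjusted p = 0.0307). Tnfrsf22 rose in experiment 1 (1.07, SE 0.19, adjusted p = 0.0018) and measured 0.18 in experiment 2 (adjusted p = 0.655). Tnfrsf10b fell in experiment 1 (log2 fold change -0.55, SE 0.143, adjusted p = 0.0118) and measured -0.29 in experiment 2 (adjusted p = 0.414).

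The other members of the superfamily were summarized by list. Of 11 further ligands 5 were tested, of which 1 was higher and 3 were lower in KO in experiment 1, and 2 were lower in experiment 2 and over both. Tnf itself led this list, with log2 fold changes of -3.73 and -3.59 in the 2 experiments. Of 26 further receptors 16 were tested, of which 4 were higher and 4 lower in experiment 1, 2 higher and 5 lower in experiment 2, and 1 higher and 3 lower over both. Of all tested genes 55.1%, 15.8% and 7.12% were called in these comparisons. Fas, another death receptor, had the smallest p of these receptors over both experiments (log2 fold change -1.96, adjusted p = 0.000983).

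Adaptors and kinases downstream of these receptors moved in both directions. Of 10 genes of TRAF signaling and the alternative NF-κB pathway, 3 were higher and 6 lower in experiment 1 and 1 higher and 7 lower in experiment 2, with median log2 fold changes of -0.27 and -0.92, beside 28.1% and 8.29% of all genes called lower. Over both experiments 1 was higher, 3 were lower (3.41% of all genes were) and 6 were not called. Map3k14, which encodes the kinase NIK that starts the alternative pathway, rose in both (0.74 and 0.90, and 0.82 over both, SE 0.0948, adjusted p = 0.00652). Birc3, which encodes cIAP2, fell in both (-1.07 and -1.92, and -1.49 over both, SE 0.205, adjusted p = 0.0109), as did Traf3 (-0.68 and -0.52, and -0.59 over both, adjusted p = 0.0094). Relb, the transcription factor of that pathway, was the third gene to fall (-1.40 over both, adjusted p = 0.025). Of 10 genes of death receptor signaling, 2 were higher and 3 lower in experiment 1 and 1 higher and 2 lower in experiment 2, where 55.1% and 15.8% of all genes were called. Cflar, the inhibitor of caspase-8 also called c-FLIP, was the only one called over both (-1.24, SE 0.151, adjusted p = 0.00727). It was also the second gene most like Tnfsf9 over the 8 libraries (r = 0.996, after Map2k1 with 0.998).

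Among 7 proteases known to cleave these ligands, 5 were tested, with 2 higher and 2 lower in KO in experiment 1, 2 lower in experiment 2, and 1 higher and 1 lower over both, beside 55.1%, 15.8% and 7.12% of all genes called. Adam17, the sheddase of TNF and other family members, fell from 614, 498, 886 and 781 CPM in WT 1 to WT 4 to 316, 308, 466 and 412 CPM in KO 5 to KO 8 (log2 fold change -0.88 over both, SE 0.109, adjusted p = 0.00749). No KO value reached the lowest WT value. Furin, the convertase that processes APRIL, BAFF and TWEAK, was at 49.4, 52.6, 54.2 and 51.1 CPM in WT 1 to WT 4 and at 86.9, 88.3, 77.5 and 56.9 CPM in KO 5 to KO 8 (0.57 over both, SE 0.131, adjusted p = 0.049). Its levels followed those of Tnfsf13b with r = 0.992, the highest r with that ligand among 12029 genes compared. The protease Adam10 was lower in KO in experiment 1 alone (-0.21, adjusted p = 0.0119).

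Pairs of the 10 genes followed each other over the 8 libraries, as a description of 8 points that share groups. Tnfsf12 and Tnfsf14 had r = 0.982, Tnfsf9 and Tnfsf15 0.948, and Tnfsf13b and Tnfsf14 0.94. Of other genes, Xiap was most like Tnfsf15 (0.991), Il6st like Tnfsf12 (0.991) and Ly96 like Tnfrsf21 (0.979), whereas the best match of Tnfrsf11a was weaker (Ppp2cb, 0.95).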

How the data were processed

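RNA-seq covered 4 WT and 4 KO libraries, in 2 experiments of 2 and 2, grouped by the sample labels. The submitters' processing notes name STAR 2.7.0f, Subread 1.6.4, featureCounts, DESeq2 1.22.1 and the build GRCm38, with no order, and the annotation is not given in the sources used here. Raw counts per gene as the authors deposited them were used, whereas the deposited normalized counts (a signal), equal to those counts divided by factors of 0.891 to 1.09, entered no test. Replicates differed beyond counting noise (chi-square per gene of 12.3 to 80.1), so no library was a copy.

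Both tables were joined by symbol. Genes passing filterByExpr (14418) were tested with edgeR 4.0.16 in R 4.3.3 (TMM, robust quasi-likelihood F test, Benjamini-Hochberg adjustment, threshold 0.05) within each experiment, over both with an experiment term, and for the interaction. The SE is the log2 fold change over the square root of F. Log2 CPM used a prior count of 2, and correlations covered genes with a mean of at least 0. The steps were tested on simulated data. Positions and exon lengths came from GENCODE M21, which matched all 170 listed genes. Named are the 10 genes, their binding partners, those of smallest p in the lists and the genes most like each of the 10, while Atp6v0d2, Acp5, Fos, Mmp9, Fcgr1, F13a1, Adam10 and Tnfsfm13 were named after their values were seen. Some genes that this rule would name are not reported here. Members and lists were chosen with earlier results of these data known.

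Alternatives were DESeq2 1.42.0, limma-voom (3.58.1), upper-quartile scaling, other filters and thresholds, other designs and leaving out each library. Figures were drawn with matplotlib 3.10.9.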

Additional observations from a re-analysis of the deposited data

Results flagged for a closer look

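The effect of genotype on 7 of the 10 genes differed between the experiments by edgeR's interaction test, which 41.6% of all tested genes passed. The log2 fold change of experiment 2 minus that of experiment 1 was -6.19 for Tnfsf10, -2.54 for Tnfsf13, -2.42 for Tnfsf14, -2.08 for Tnfrsf14, -1.55 for Tnfsf12, -0.619 for Tnfsf9 and 2.57 for Tnfrsf21. Tnfsf9 fell in both experiments and differed only in size, a call that was lost in 6 of the 8 fits that left out a library. The value of Tnfsf10 was -5.35 without WT 3 and -6.71 without WT 4. For Tnfsf10 and Tnfrsf21 the calls within the experiments had opposite signs. Each experiment held its own WT and KO libraries, and the cause of these differences was not tested.

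Within the 4 WT libraries, the level of Tnfrsf11a in WT 4 lay far below the nearest other library, with a gap of 0.873 of the whole range, above the critical value of Dixon for 4 samples. It was 1 of 20 groups tested in this way, and chance gives about 1 in 20.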

How the results depend on the processing

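No paired analysis was possible because the library numbers 1 to 8 are each used once, so WT and KO share no replicate number. Leaving out each library gave 6349 to 7149 genes and 8 to 9 of the 10 genes called in experiment 1, 232 (without KO 8) to 1388 genes and 2 to 5 of the 10 in experiment 2, 243 (without WT 1) to 1100 genes and 1 to 3 of the 10 over both, and 3935 (without WT 2) to 6508 genes and 6 to 8 of the 10 for the interaction, each with fewer samples than in full.

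In experiment 2, 3006 of 28193 genes and 3 of the 10 were called with no filter on low counts, 234 genes and 3 of the 10 at an adjusted p under 0.01, and 4899 genes when all 8 libraries were fitted as 4 groups. Over both experiments, DESeq2 called 2492 genes and 4 of the 10, the threshold of 0.01 left 208 genes and 1 of the 10, and the mean of both genotype effects, from a fit with the interaction, gave 4811 genes and 7 of the 10. Without the experiment term edgeR called 4 genes and 0 of the 10, where 2983 genes and 5 of the 10 had an unadjusted p under 0.05. When the KO libraries traded places between the experiments, chosen after seeing the data, it called 26 genes and 0 of the 10 (4492 and 7 at an unadjusted p under 0.05). For the interaction, 3247 genes passed 0.01. Upper-quartile scaling moved the split of calls to 4776 higher and 3207 lower in experiment 1 (from 3892 and 4056) and to 754 and 367 over both (from 536 and 491), with a median log2 fold change of all genes of 0.11 in experiment 1.

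Directions turned for Tnfrsf11a in experiment 2 (0.0406 with upper-quartile scaling, -0.162 to 0.147 without single libraries) and, without single libraries, for Tnfsf14 (-0.328 to 0.676) and Tnfsf12 (-0.427 to 0.14) in experiment 2, and over both for Tnfsf13 (-0.0331 to 0.822), Tnfrsf21 (-0.0202 to 0.8) and Tnfsf10 (-2.6 to 0.409). None of these was past the threshold. No other log2 fold change of the 10 genes changed sign under the alternatives run, and where no construction is named above, the cause was not tested.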
